A study of Mus musculus with 8 samples.

Results

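The 10 genes described here handle calcium or carry its signal to the nucleus in T cells. They were taken by name from the 27594 genes of the count table and comprise Stim1, Stim2, Orai1, Orai2, Itpr1, Atp2b1, Atp2b4, Nfatc1, Nfatc2 and Nfatc3. Each name matched 1 gene, and all 10 were among the 14540 genes that passed the filter on low counts and were tested.

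When a T-cell receptor is engaged, inositol trisphosphate opens receptors in the endoplasmic reticulum and calcium leaves this store. Stim proteins sense the emptied store and open Orai channels in the plasma membrane, while calcium pumps return the ion across the membrane or into the store. The phosphatase calcineurin then removes phosphates from NFAT transcription factors, which enter the nucleus. In Treg cells this route is known to act on activation and on Foxp3-dependent gene expression.

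RNA was sequenced from Treg cells of C57BL/6 mice aged 6 to 8 weeks, taken from spleen and peripheral lymph nodes, in 8 libraries that form 4 groups of 2 replicates. Mice of both genotypes carried Cre with YFP in the Foxp3 locus (Foxp3-YFP-Cre), so that Cre acted in cells that express Foxp3 and YFP marked them. That is the whole genotype labelled for WT mice, and the Foxp1-deficient (cKO) mice were Foxp1fl/fl besides. Cells were sorted as CD4+YFP+, with resting (rTreg) cells CD44lowCD62Lhigh and activated (aTreg) cells CD44highCD62Llow. The labels do not say how many mice made up a library.

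The libraries held 6373170 to 15268623 counts on genes, with a median of 12327710. The sorting marker Cd44 followed the labels, since it was higher in aTreg than in rTreg cells of both genotypes (log2 fold changes of 2.41 in WT and 2.63 in Foxp1-deficient cells). The count over the whole Foxp1 gene was lower in Foxp1-deficient aTreg cells (log2 fold change -1.03, adjusted p = 0.00194) but not separated in rTreg cells (-0.12, adjusted p = 0.460, quasi-likelihood test of edgeR, Benjamini-Hochberg adjusted), so it leaves the genotype labels of the rTreg libraries unchecked. The study itself reported Foxp1 as fully deleted in YFP+ Treg cells of such mice, by immunoblot, mRNA measurement and intracellular staining. Treg markers summed to 2788 to 4317 CPM (counts scaled to library size) in every library. The 29 markers of other blood cells summed to 29.5 to 37.2 CPM in WT rTreg, 34.2 to 55.8 in Foxp1-deficient rTreg, 44.6 to 45.8 in WT aTreg and 42.6 to 66.3 in Foxp1-deficient aTreg cells. Of these, the sum of the 8 myeloid markers moved with genotype in rTreg cells. It was 0.786 to 2.12 CPM in WT and 5.99 to 16.9 in Foxp1-deficient rTreg libraries, which did not overlap. In aTreg libraries it was 4.36 to 5.49 in WT and 4.60 to 28.7 in Foxp1-deficient ones, which did. Mpo, a granule enzyme of neutrophils named here after its values were seen, had 0 and 0 counts in WT rTreg, 25 and 36 in Foxp1-deficient rTreg, 3 and 4 in WT aTreg and 68 and 14 in Foxp1-deficient aTreg cells. Of the other myeloid markers, Csf1r, Cd14 and Adgre1 had 0 to 4 counts in each rTreg library and overlapped between the genotypes in CPM. Lyz2, Itgam, S100a8 and S100a9 were higher in both Foxp1-deficient rTreg libraries than in both WT ones. Besides Mpo in WT rTreg, markers of the 29 at 0 included Siglech in WT rTreg and Ms4a1 and Pf4 in Foxp1-deficient rTreg cells. They also included Ebf1 and Hbb-bt in WT aTreg, and Siglech and Pf4 in Foxp1-deficient aTreg cells. Sums of B cell, NK and dendritic markers were higher in aTreg than in rTreg libraries of both genotypes. Those of CD8 T markers were lower. In WT rTreg and aTreg libraries, B cell markers summed to 7.92 to 9.03 and 19.2 to 19.9 CPM. In Foxp1-deficient ones they summed to 9.24 to 9.56 and 18.4 to 21.2. For CD8 T markers these were 12.5 to 16.7 and 8.08 to 9.98 in WT libraries. In Foxp1-deficient libraries they were 13.2 to 14.3 and 6.11 to 8.13. The part of these other blood cells in the results between genotypes and subsets was not tested, and in such bulk samples fewer cells of a type and less RNA per cell cannot be told apart. Replicate 1 libraries carried counts from Y-linked genes and at most 3 Xist counts, and replicate 2 libraries carried Xist and no such Y-linked counts, so that the replicates of a group came from different mice and the replicate number also separates the sexes.

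Most of the movement among the 10 genes lay between the subsets rather than between the genotypes. In WT cells 5 of the 10 were higher in aTreg than in rTreg cells and none was lower, against 31.9% of all genes tested that passed in either direction and 18.2% that passed as higher. In Foxp1-deficient cells 7 of the 10 were higher in aTreg cells and none lower, against 40.1% in either direction and 21.9% as higher. Between the genotypes of rTreg cells, 1 of the 10 (Atp2b1) passed, as lower without Foxp1, against 12.0% of all genes in either direction and 5.45% as lower. Between those of aTreg cells 2 of the 10 (Itpr1 and Nfatc3) passed, as higher without Foxp1, against 6.88% in either direction and 4.11% as higher. The genotype effect differed between the subsets for 1 of the 10 (Atp2b1), tested as an interaction term. Its log2 fold change between genotypes was less negative in aTreg (-0.16) than in rTreg cells (-1.03), which makes the term positive. Of all genes, 0.330% passed the interaction term, and 0.186% at a positive value. A gene passed at an adjusted p under 0.05 in edgeR's quasi-likelihood test, fitted to all 8 libraries and blocked by replicate number, and adjusted p-values below are from that fit with Benjamini-Hochberg adjustment over all genes unless stated.

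The median log2 fold change of the 10 genes was 0.16 between the WT subsets and 0.49 between the Foxp1-deficient subsets, where that of all genes tested was -0.0046 and -0.018. Between genotypes it was -0.070 in rTreg and 0.12 in aTreg cells, beside 0.0029 and 0.0018 for all genes. With the study's stricter thresholds, Atp2b4 and Nfatc1 alone also passed a fold of 2 between the subsets in each genotype, where 9.50% of all genes in WT and 11.3% in Foxp1-deficient cells did as higher. Atp2b1 alone passed a fold of 1.5 between genotypes in rTreg cells, where 2.70% of all genes did as lower, and none of the 10 did in aTreg cells, where 2.37% of all genes did as higher. A fit with no replicate block passed 2 genes (Atp2b4 and Nfatc1) between the WT subsets, 5 between the Foxp1-deficient subsets, 1 between genotypes in rTreg cells and 0 in aTreg cells or by the interaction term.

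**Figure D1:**
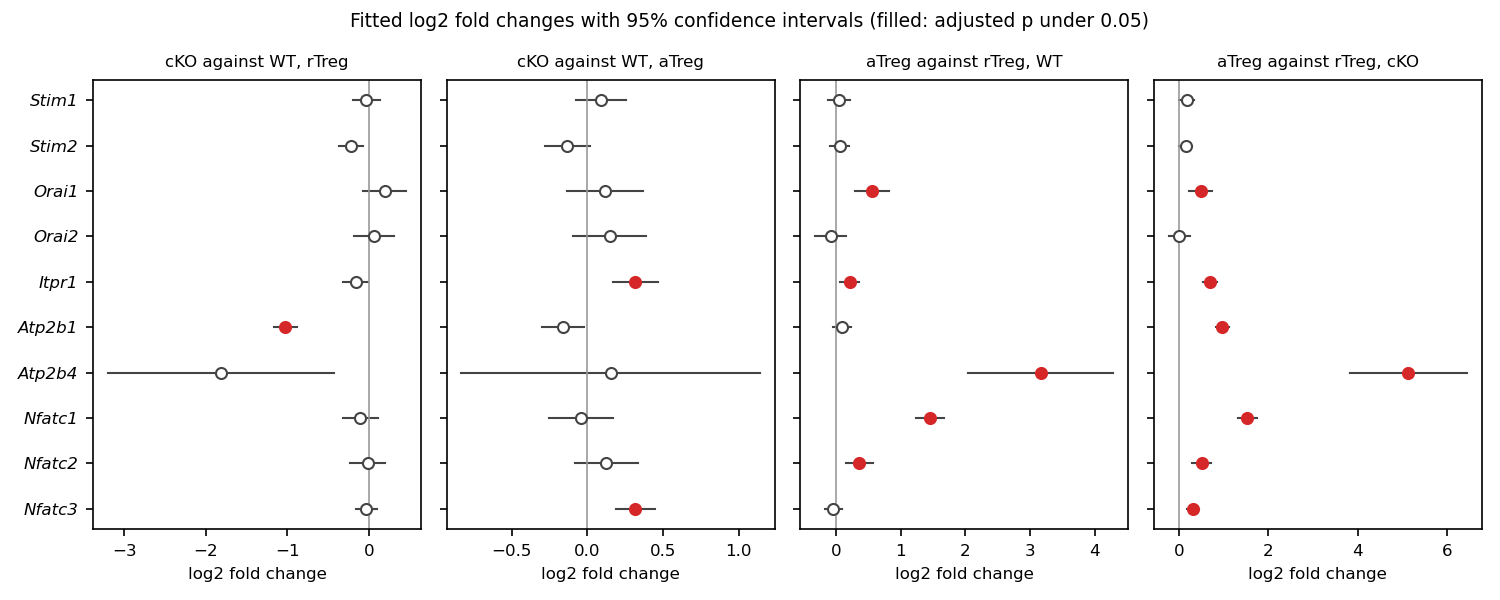
Fitted log2 fold changes (horizontal axis) of the 10 genes with 95% confidence intervals in the 4 comparisons, with filled points for an adjusted p under 0.05. Atp2b4 and Nfatc1 lie farthest to the right in both comparisons of subsets, and Atp2b1 alone is filled in the comparison of genotypes in rTreg cells.

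The letters upstream of 3 of the genes are shown because they were searched for forkhead and NFAT motifs. Foxp1 is a forkhead factor, Atp2b1 and Nfatc3 passed between genotypes, and Atp2b4 had the widest difference between subsets. Each is the run of 250 bases before a RefSeq transcript start, 5′ to 3′ on the strand of the gene, in build GRCm38.p6: chr10:98914902-98915151 (plus strand) for Atp2b1, chr1:133753748-133753997 (minus strand) for Atp2b4 and chr8:106058568-106058817 (plus strand) for Nfatc3. Capitals mark matches to the forkhead motif TGTTTAC or the NFAT core GGAAA on either strand.
Atp2b1: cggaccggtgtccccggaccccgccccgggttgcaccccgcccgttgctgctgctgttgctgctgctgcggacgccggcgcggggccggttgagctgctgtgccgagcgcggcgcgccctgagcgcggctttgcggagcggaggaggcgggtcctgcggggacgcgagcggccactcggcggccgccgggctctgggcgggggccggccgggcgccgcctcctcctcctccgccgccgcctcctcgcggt
Atp2b4: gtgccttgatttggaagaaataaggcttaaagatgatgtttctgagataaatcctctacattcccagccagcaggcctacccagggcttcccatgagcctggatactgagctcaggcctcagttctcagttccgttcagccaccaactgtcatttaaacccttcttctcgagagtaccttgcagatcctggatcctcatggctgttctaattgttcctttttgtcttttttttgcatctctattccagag
Nfatc3: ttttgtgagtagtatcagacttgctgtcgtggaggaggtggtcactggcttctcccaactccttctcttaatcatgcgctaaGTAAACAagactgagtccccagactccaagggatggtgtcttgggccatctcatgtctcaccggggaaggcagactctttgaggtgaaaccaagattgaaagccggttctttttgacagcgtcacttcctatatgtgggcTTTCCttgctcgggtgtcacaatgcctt
The Atp2b1 window lies inside the annotated gene with 0 of its bases in an exon, the Atp2b4 window lies inside the gene with 2 bases in an exon, and the Nfatc3 window lies upstream of the annotated gene, in GENCODE M21. Neither motif was found in the Atp2b1 and Atp2b4 windows shown. The annotated 5′ end of Atp2b4 lies at 133801041, away from its window, and the bases before that end were not searched. Atp2b1 and Nfatc3 have another RefSeq start each, whose windows are not shown. That of Atp2b1 lies mostly in an exon (236 bases) and held 1 GGAAA core, and that of Nfatc3 lies inside the gene and held neither motif. The Nfatc3 window shown held the forkhead letters, read on the opposite strand, starting at position -168 from the RefSeq start, and 1 GGAAA core. The bases that follow either Nfatc3 start were not found in a GENCODE M21 transcript of the gene. Those that follow the starts of the other genes were found.

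RefSeq start sites were found for 8 of the 10 genes, in 11 windows, and Itpr1 and Nfatc1 had none in the table used. TGTTTAC was present in 2 of the 11 windows (Nfatc2 and Nfatc3) and in 3.17% of all 32851 windows of this length. GGAAA was present in 5 of the 11 and in 55.6% of all windows, and the longer TGGAAAA in 0 of the 11 and 5.93% of all. Both strands were searched for each motif, TGGAAAA contains GGAAA, and a match is a description of letters and not of binding.

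Levels are given as normalised FPKM, the FPKM values of the authors rescaled to TMM library sizes, which account for gene length and can be compared between genes. On this scale the mean levels in WT rTreg cells ran from 2.38 for Atp2b4 and 5.28 for Itpr1 to 25.7 for Nfatc1 and 36.3 for Orai2. Stim1, Nfatc2, Atp2b1, Stim2, Orai1 and Nfatc3 lay between them at 13.7, 15.9, 17.5, 18.6, 24.4 and 25.6. Libraries of Nfatc2 and Atp2b1 overlapped, as did those of Orai1, Nfatc3 and Nfatc1, so that their order is not set beyond the spread. In WT aTreg cells Nfatc1 had the highest mean of the 10, at 70.7, and Itpr1 the lowest, at 6.13.

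**Figure D2:**
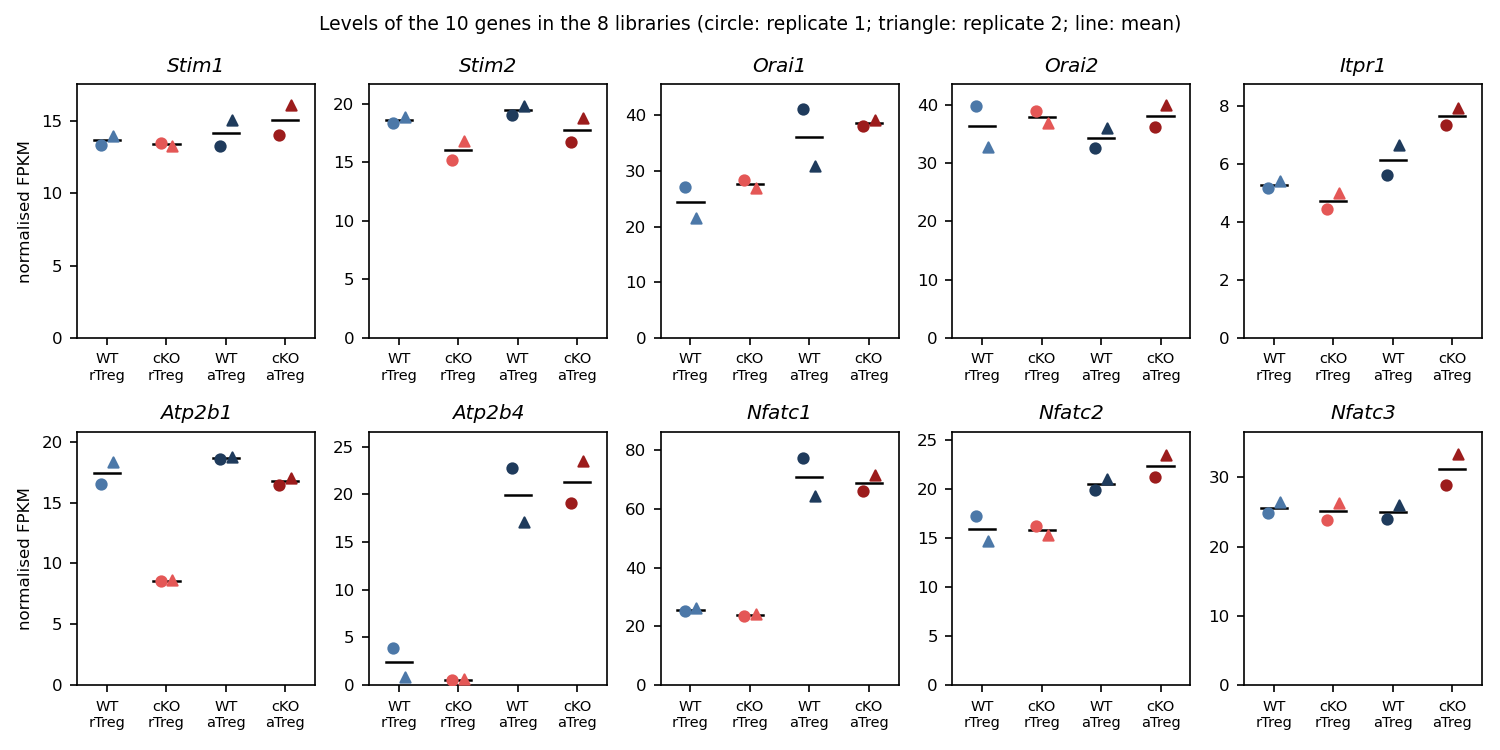
Normalised FPKM (vertical axis, from 0) of the 10 genes in the 4 groups, with 1 circle and 1 triangle for replicates 1 and 2 and a line at the mean. Atp2b1 stands lower in both Foxp1-deficient rTreg libraries (8.55 and 8.60) than in the other 6, and Atp2b4 and Nfatc1 stand higher in all 4 aTreg libraries than in all 4 rTreg libraries.

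Stim1 and Stim2 sense calcium in the store. Stim1 stood at 13.4 and 14.0 normalised FPKM in WT rTreg, 13.5 and 13.3 in Foxp1-deficient rTreg, 13.3 and 15.1 in WT aTreg and 14.1 and 16.1 in Foxp1-deficient aTreg cells. No comparison of Stim1 passed, and its log2 fold change between genotypes was -0.03 in rTreg cells (95% confidence interval -0.20 to 0.13) and 0.09 in aTreg cells (-0.08 to 0.25). Stim2 stood at 18.4 and 18.9 in WT rTreg, 15.2 and 16.8 in Foxp1-deficient rTreg, 19.0 and 19.8 in WT aTreg and 16.8 and 18.7 in Foxp1-deficient aTreg cells. In each subset both Foxp1-deficient libraries of Stim2 lay under both WT libraries, but neither difference passed (log2 fold change -0.22, adjusted p = 0.0662 in rTreg and -0.13, adjusted p = 0.259 in aTreg cells).

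Orai1 forms the pore through which calcium enters, and Orai2 is a related subunit that can join it. Orai1 stood at 27.2 and 21.6 normalised FPKM in WT rTreg, 28.4 and 26.9 in Foxp1-deficient rTreg, 41.2 and 31.0 in WT aTreg and 38.0 and 39.1 in Foxp1-deficient aTreg cells. All 4 aTreg libraries lay above all 4 rTreg libraries, and Orai1 passed as higher in aTreg cells, by 0.56 on the log2 scale in WT (standard error 0.111, adjusted p = 0.00701) and 0.48 in Foxp1-deficient cells (0.111, adjusted p = 0.0107). The adjusted p rose to 0.0533 in WT and 0.0686 in Foxp1-deficient cells without the replicate block. The WT call was also lost without WT rTreg replicate 2 (0.48, adjusted p = 0.0628) or WT aTreg replicate 1 (0.41, adjusted p = 0.0554), and the other without Foxp1-deficient rTreg replicate 1 (0.42, adjusted p = 0.0796) or aTreg replicate 2 (0.31, adjusted p = 0.107). Orai2 stood at 39.9 and 32.8 in WT rTreg, 39.0 and 36.9 in Foxp1-deficient rTreg, 32.6 and 36.1 in WT aTreg and 36.2 and 39.9 in Foxp1-deficient aTreg cells. Its WT aTreg libraries lay under both Foxp1-deficient groups, WT rTreg overlapped all other groups, and no comparison of Orai2 passed. Between genotypes Orai1 did not pass either, at 0.19 (95% confidence interval -0.07 to 0.46) in rTreg and 0.11 (-0.14 to 0.37) in aTreg cells.

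Itpr1 (ENSMUSG00000030102) encodes an inositol trisphosphate receptor, the channel that releases calcium from the store, on chromosome 6 from 108213096 to 108551109 (plus strand, GENCODE M21 of GRCm38, as are the positions below). It stood at 5.15 and 5.42 normalised FPKM in WT rTreg, 4.45 and 4.98 in Foxp1-deficient rTreg, 5.62 and 6.64 in WT aTreg and 7.34 and 7.91 in Foxp1-deficient aTreg cells, so that the 4 groups did not overlap. Foxp1-deficient cells were the lowest group among rTreg and the highest among aTreg cells. The subset difference was 0.69 on the log2 scale in Foxp1-deficient cells (standard error 0.0658, adjusted p = 0.000145) and 0.21 in WT cells (0.0651, adjusted p = 0.0409). Between genotypes Itpr1 was higher in Foxp1-deficient aTreg cells by 0.32 (0.0645, adjusted p = 0.0296), while in rTreg cells the value was -0.16 (adjusted p = 0.153). The difference between these genotype effects was 0.48 with an adjusted p of 0.0764. It passed in 2 of 18 alternative settings, DESeq2 (adjusted p = 0.0159) and edgeR with no filter on low counts.

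Both smaller Itpr1 calls depended on the fit. In the genotype comparison of aTreg cells the adjusted p was 0.289 without the replicate block and 0.0516 to 0.157 when any 1 of the 8 libraries was left out, while the log2 fold change stayed between 0.26 and 0.38. For the WT subsets it was 0.237 without the block and 0.0539 to 0.255 when any 1 library was left out, at 0.15 to 0.27 on the log2 scale.

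Atp2b1 and Atp2b4 encode plasma membrane calcium pumps, which use ATP to move calcium out of the cell. Atp2b1 (ENSMUSG00000019943) lies on chromosome 10 from 98914406 to 99026143 (plus strand) and Atp2b4 (ENSMUSG00000026463) on chromosome 1 from 133699457 to 133801041 (minus strand). Atp2b1 stood at 16.6 and 18.4 normalised FPKM in WT rTreg, 8.55 and 8.60 in Foxp1-deficient rTreg, 18.6 and 18.8 in WT aTreg and 16.4 and 17.0 in Foxp1-deficient aTreg cells. Both Foxp1-deficient rTreg libraries were lower than the other 6, which lay within 16.4 to 18.8. Among rTreg cells, Atp2b1 was 2.04-fold lower without Foxp1 (log2 fold change -1.03, 95% confidence interval -1.17 to -0.89, adjusted p = 0.000145), with -0.95 in the pair of replicate 1 and -1.09 in that of replicate 2. In aTreg cells the genotype difference was -0.16 (-0.30 to -0.02, adjusted p = 0.158).

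The log2 fold change of Atp2b1 between genotypes was less negative in aTreg than in rTreg cells, by 0.87 (95% confidence interval 0.67 to 1.06, adjusted p = 0.0193 for the interaction term). Seen by subset, Atp2b1 was 1.95-fold higher in aTreg than in rTreg cells of Foxp1-deficient mice (0.97, adjusted p = 2.22e-05), and 0.10 higher (-0.04 to 0.24, adjusted p = 0.247) in WT cells. The rTreg genotype difference passed in all 19 alternative settings, at -1.10 to -0.94 with adjusted p of at most 0.0172. The interaction passed in 10 of 18, and its adjusted p was 0.181 without the replicate block. Leaving out WT rTreg replicate 2 (adjusted p = 0.0775), Foxp1-deficient rTreg replicate 1 (0.121) or replicate 2 (0.215), or Foxp1-deficient aTreg replicate 2 (0.113) also lost it, with differences of 0.81 to 0.90.

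Atp2b4 had the widest range of the 10 genes. Its levels were 3.91 and 0.86 normalised FPKM in WT rTreg cells (520 and 134 counts), 0.51 and 0.65 in Foxp1-deficient rTreg cells (39 and 110 counts), 22.7 and 17.1 in WT aTreg cells (2536 and 3258 counts) and 19.1 and 23.4 in Foxp1-deficient aTreg cells (2793 and 3995 counts). Every aTreg library lay above every rTreg library, and the WT rTreg libraries differed from each other more than WT replicate 2 did from the Foxp1-deficient ones. Between the subsets Atp2b4 was 8.98-fold higher in aTreg cells of WT mice (log2 fold change 3.17, standard error 0.484, adjusted p = 0.00207) and 35.1-fold higher in those of Foxp1-deficient mice (5.13, 0.567, adjusted p = 0.000308). The WT value was 4.54 without WT rTreg replicate 1 and 2.35 without replicate 2, and it passed in all 19 settings. The Foxp1-deficient value also passed in all 19, at 3.84 to 5.75.

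The genotype difference of Atp2b4 in rTreg cells did not pass, at -1.81 on the log2 scale (95% confidence interval -3.20 to -0.43, adjusted p = 0.0919), with -2.95 in the pair of replicate 1 and -0.41 in the pair of replicate 2. It was -0.54 (adjusted p = 0.354) without WT rTreg replicate 1 and -2.72 (adjusted p = 0.00614) without WT rTreg replicate 2, so that these libraries decided the value. With no filter on low counts the fold change was -1.83 and passed (adjusted p = 7.26e-05). In aTreg cells the difference was 0.15 (-0.83 to 1.14), and the interaction term was 1.97 (adjusted p = 0.311).

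Nfatc1, Nfatc2 and Nfatc3 encode NFAT transcription factors that respond to calcineurin, and Nfatc1 is known as a gene whose own transcription rises with NFAT activity. Nfatc1 stood at 25.0 and 26.4 normalised FPKM in WT rTreg, 23.4 and 24.3 in Foxp1-deficient rTreg, 77.2 and 64.3 in WT aTreg and 66.0 and 71.4 in Foxp1-deficient aTreg cells. All aTreg libraries lay above all rTreg libraries in each genotype. It was 2.75-fold higher in aTreg cells of WT mice (log2 fold change 1.46, standard error 0.0934, adjusted p = 3.54e-05) and 2.88-fold higher in those of Foxp1-deficient mice (1.53, 0.0939, adjusted p = 1.98e-05), and both passed in all 19 settings. Between genotypes Nfatc1 was at -0.11 (95% confidence interval -0.32 to 0.11) in rTreg and -0.04 (-0.25 to 0.17) in aTreg cells.

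Nfatc2 stood at 17.2 and 14.7 normalised FPKM in WT rTreg, 16.2 and 15.3 in Foxp1-deficient rTreg, 19.9 and 21.0 in WT aTreg and 21.2 and 23.4 in Foxp1-deficient aTreg cells. Its aTreg libraries lay above its rTreg libraries, by 0.36 on the log2 scale in WT (standard error 0.0913, adjusted p = 0.0194) and 0.50 in Foxp1-deficient cells (0.0916, adjusted p = 0.00354). The WT call was lost without the replicate block (adjusted p = 0.0545), without WT rTreg replicate 2 (0.24, adjusted p = 0.150) and without WT aTreg replicate 2 (0.30, adjusted p = 0.107). Between genotypes the values were -0.02 (95% confidence interval -0.23 to 0.20) in rTreg and 0.13 (-0.08 to 0.34) in aTreg cells.

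Nfatc3 (ENSMUSG00000031902), on chromosome 8 from 106058840 to 106130537 (plus strand), stood at 24.8 and 26.4 normalised FPKM in WT rTreg, 23.9 and 26.3 in Foxp1-deficient rTreg, 23.9 and 26.0 in WT aTreg and 28.9 and 33.4 in Foxp1-deficient aTreg cells. Both Foxp1-deficient aTreg libraries were higher than the other 6, which overlapped. Nfatc3 was higher by 0.32 on the log2 scale in Foxp1-deficient than in WT aTreg cells (95% confidence interval 0.19 to 0.45, adjusted p = 0.0177) and by 0.31 in aTreg than in rTreg cells of Foxp1-deficient mice (0.18 to 0.44, adjusted p = 0.00327). These adjusted p were 0.264 and 0.0702 without the replicate block. The genotype call was also lost without WT aTreg replicate 1 (0.34, adjusted p = 0.0506), WT aTreg replicate 2 (0.30, adjusted p = 0.114) or Foxp1-deficient aTreg replicate 2 (0.27, adjusted p = 0.157). The interaction term was 0.35 with an adjusted p of 0.113. It passed in 2 of 18 alternative settings, DESeq2 (adjusted p = 0.0145) and edgeR with no filter on low counts. Exons of Nfatc3 overlap those of Esrp2 on the opposite strand by 219 bases, and Esrp2 had 111 counts over the 8 libraries against 29928 for Nfatc3.

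**Figure D3:**
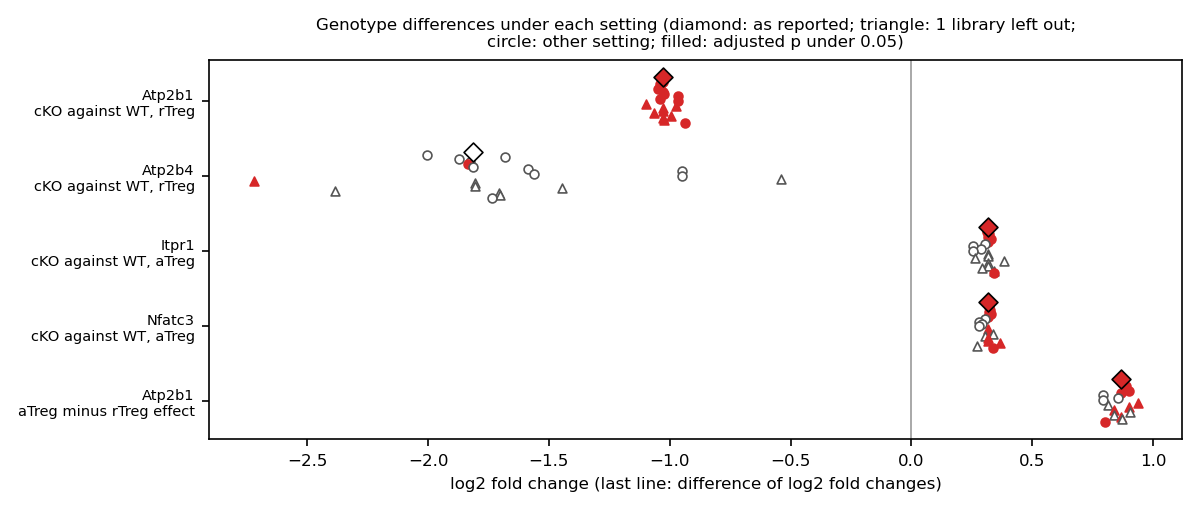
Log2 fold changes (horizontal axis) of 4 genotype differences and of the Atp2b1 interaction in the reported fit and under each alternative, 1 point per setting, filled where the adjusted p was under 0.05. The Atp2b1 points in rTreg cells stay within -1.10 to -0.94 and are all filled, while those of Atp2b4 spread from -2.72 to -0.54.

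The other genes of the route were read from a list of 65, of which 57 were in the fit. Between the genotypes of rTreg cells, 8 were lower and 2 higher without Foxp1 (17.5% of the 57, against 12.0% of all genes), and between those of aTreg cells 1 was lower and 2 higher (5.26%, against 6.88%). The median log2 fold change was -0.098 in rTreg and 0.0061 in aTreg cells. Without the replicate block 2 were lower and 0 higher in rTreg cells, and 0 passed in aTreg cells. The rTreg counts also turned on single libraries, with 0 lower and 0 higher without Foxp1-deficient rTreg replicate 2, 3 lower and 0 higher without Foxp1-deficient rTreg replicate 1 or WT rTreg replicate 2, and 4 lower and 1 higher without WT rTreg replicate 1. In aTreg cells 0 passed without WT aTreg replicate 2 or either Foxp1-deficient aTreg library, and 1 or 2 without any other library. By role, 4 of 8 channels outside the store route were lower in Foxp1-deficient rTreg cells and 1 was higher, 2 of 11 genes of store release were lower, 1 of 5 genes of mitochondrial uptake was higher, and 0 of 7 further genes of store entry and 0 of 5 further pumps and exchangers passed, with 2 of each at an unadjusted p under 0.05 in edgeR. Calcineurin, calmodulin and their regulators gave 1 lower gene of 14, and the other NFAT genes with their kinases and partners 1 lower of 7.

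Ryr2, a ryanodine receptor that releases calcium from the store, stood at 0.53 and 0.21 normalised FPKM in WT rTreg, 0.03 and 0.04 in Foxp1-deficient rTreg (3 and 9 counts), 3.46 and 3.07 in WT aTreg and 1.58 and 0.97 in Foxp1-deficient aTreg cells. Its Foxp1-deficient libraries lay under the WT libraries in each subset, at a difference of -3.20 on the log2 scale in rTreg (standard error 0.475, adjusted p = 0.00690) and -1.41 in aTreg cells (0.216, adjusted p = 0.0119). Between the subsets it was higher in aTreg cells by 3.24 in WT (adjusted p = 8.26e-05) and 5.03 in Foxp1-deficient cells (adjusted p = 6.09e-05). The rTreg genotype call was lost without Foxp1-deficient rTreg replicate 1 (-2.86, adjusted p = 0.0568) or replicate 2 (-3.89, adjusted p = 0.0743). The aTreg call was lost without the replicate block (adjusted p = 0.203) and without WT aTreg replicate 2 (-1.05, adjusted p = 0.0816), Foxp1-deficient aTreg replicate 1 (-1.51, adjusted p = 0.0534) or replicate 2 (-1.31, adjusted p = 0.141). On log2 of FPKM plus 1 the rTreg difference was -0.39 and did not pass.

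Kcna3, the potassium channel Kv1.3 that keeps the membrane potential for calcium entry, stood at 47.9 and 49.3 normalised FPKM in WT rTreg, 29.7 and 32.9 in Foxp1-deficient rTreg, 111 and 129 in WT aTreg and 108 and 134 in Foxp1-deficient aTreg cells. It was lower in Foxp1-deficient rTreg cells (-0.64 on the log2 scale, adjusted p = 0.00327), and higher in aTreg than in rTreg cells by 1.30 in WT (adjusted p = 2.19e-05) and 1.95 in Foxp1-deficient cells (adjusted p = 3.89e-06). Trpm4, a calcium-activated cation channel, and P2rx4, an ATP-gated channel, were lower in Foxp1-deficient rTreg cells, at -1.01 (adjusted p = 0.00856) and -0.70 (adjusted p = 0.00661). Without the replicate block Kcna3 and P2rx4 lost this call (adjusted p = 0.0610 and 0.0542). All 3 lost it without Foxp1-deficient rTreg replicate 2 (adjusted p = 0.0601 for Kcna3, 0.128 for Trpm4 and 0.0951 for P2rx4), and Trpm4 and P2rx4 also without WT rTreg replicate 2 (0.0620 and 0.0669).

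**Figure D4:**
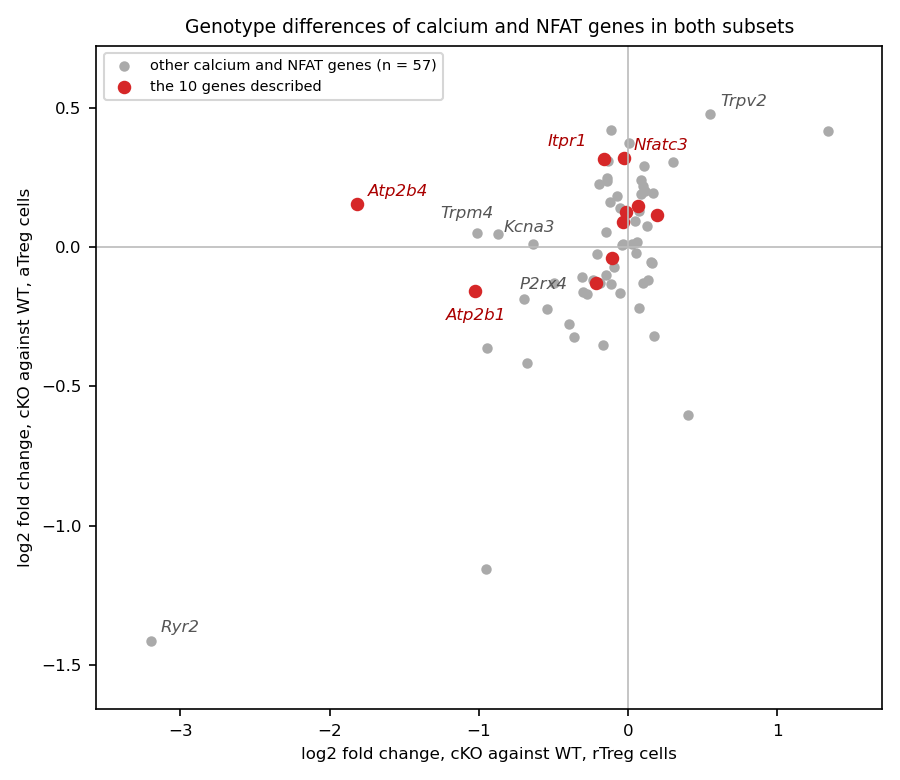
Log2 fold changes of Foxp1-deficient against WT cells in rTreg (horizontal axis) and aTreg cells (vertical axis) for the 10 genes (red) and the 57 other genes of the route in the fit (grey). Atp2b1, Trpm4, Kcna3 and P2rx4 lie left of 0 on the rTreg axis and close to 0 on the aTreg axis, and Ryr2 lies below 0 on both.

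Trpv2, a cation channel, stood at 21.3 and 17.4 normalised FPKM in WT rTreg, 27.1 and 29.2 in Foxp1-deficient rTreg, 32.9 and 28.3 in WT aTreg and 40.0 and 44.9 in Foxp1-deficient aTreg cells. Its Foxp1-deficient libraries lay above the WT libraries in each subset, by 0.55 on the log2 scale in rTreg (adjusted p = 0.0249) and 0.48 in aTreg cells (adjusted p = 0.0487), and the interaction term was -0.07 (adjusted p = 0.954). Without the replicate block neither passed (adjusted p = 0.0935 and 0.191). The rTreg call was also lost without WT rTreg replicate 2 (0.38, adjusted p = 0.195) or either Foxp1-deficient rTreg library (0.0675 and 0.225). The aTreg call was also lost without either WT aTreg library (adjusted p = 0.0637 and 0.292), either Foxp1-deficient rTreg library (0.0727 and 0.0756) or either Foxp1-deficient aTreg library (0.0534 and 0.349).

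Between the subsets, 15 of the 57 were higher and 11 lower in aTreg cells of WT mice (45.6%, against 31.9% of all genes), and 17 were higher and 11 lower in those of Foxp1-deficient mice (49.1%, against 40.1%). Without the replicate block these counts were 9 and 6, and 14 and 4. The WT counts were 10 and 5 without WT rTreg replicate 1 and 9 and 7 without WT aTreg replicate 1, and the Foxp1-deficient counts were 15 and 5, 15 and 6 and 14 and 5 without Foxp1-deficient rTreg replicate 1, rTreg replicate 2 and aTreg replicate 2. Besides Ryr2 and Kcna3, the widest in WT cells were Orai3, a further Orai channel subunit, at 1.23 on the log2 scale (adjusted p = 0.000263), and Homer3, a scaffold protein, at -2.37 (adjusted p = 0.00133). In Foxp1-deficient cells they were Trpm4 at 1.66 (adjusted p = 0.000136) and Cacnb3, a voltage-gated channel subunit, at -1.64 (adjusted p = 0.0423). Cacnb3 had 13 to 45 counts in these 4 libraries, and its call was lost without the replicate block (adjusted p = 0.0833) and when any 1 of the 4 was left out (0.118 to 0.208). None of the 57 passed the interaction term in the reported edgeR fit, where 9 at positive and 3 at negative values had an unadjusted p under 0.05, and 2 passed in DESeq2 and 0 in limma-voom. With no filter on low counts, edgeR passed 5 of 62 as higher and 1 as lower, where 573 of 27594 genes passed.

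Genes known to be bound or raised by NFAT were read from a list of 17, of which 15 were in the fit, with Il2 and Csf2 under the filter on low counts. In aTreg against rTreg cells of WT mice 13 of the 15 were higher and none lower, where 18.2% of all genes were higher. In Foxp1-deficient mice 13 were higher and none lower, where 21.9% of all genes were higher. Median log2 fold changes of the 15 were 1.57 and 1.82. Il4, Il21, Ifng and Havcr2 had 0 to 5 counts in each rTreg library and reached the fit only through aTreg libraries. For them a lower level in aTreg cells could not have passed, so these counts and medians partly follow from the filter. With no filter on low counts 13 of 17 were higher and none lower in each genotype. Between genotypes 1 was higher and 1 lower in rTreg cells (13.3% of the 15, against 12.0% of all genes), and 0 of 15 passed in aTreg cells, where edgeR gave 1 higher and 3 lower at an unadjusted p under 0.05 and DESeq2 and limma-voom also passed 0. With no filter on low counts, 2 of 17 were higher and 2 lower in aTreg cells, where 1844 of 27594 genes passed. Egr2, a transcription factor of activated T cells, was at -0.55 (adjusted p = 0.0276) and Tnf, the cytokine, at 0.58 (adjusted p = 0.0306) in Foxp1-deficient rTreg cells. Without the replicate block neither passed (adjusted p = 0.138 and 0.406). Egr2 lost its call without either rTreg library of either genotype (adjusted p of 0.0710 to 0.149), and Tnf without either WT rTreg library (0.160 and 0.128) or Foxp1-deficient rTreg replicate 2 (0.308).

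Patterns over the 4 groups were compared by the root mean square difference of log2 CPM group means, each gene centred on its own mean, among the 67 genes of the route. Nearest to Atp2b1 was Atp2a1, a calcium pump of the store, at 0.26, and nearest to Atp2b4 was Ryr2 at 0.66, the widest distances among the 10. Atp2a1 had only 15 to 51 counts in each library and did not pass between genotypes in either subset. Nearest to Nfatc1 was Orai3 at 0.16, and to Itpr1 was Rcan1, an inhibitor of calcineurin, at 0.036. These distances are a description over 4 groups with no test. Nearest to Orai1 was Nfatc2 at 0.083, to Orai2 was Mcu at 0.018, to Stim1 was Itpkb at 0.044, to Stim2 was Cabin1 at 0.034 and to Nfatc3 was Atp2a3 at 0.071.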

How the data were processed

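Per the labels, total RNA was made into libraries with the NEBNext Ultra kit. In the study's methods, paired reads were checked with FastQC, trimmed with trim_galore, cleared of duplicates with Picard and counted with htseq-count. The submitters' processing notes name HISAT2 2.0.5, HTSeq and mm10. The deposited counts are whole reads per gene, not normalised, and the deposited FPKM values are these counts per gene length and library total, made by the authors. Strand use in counting is not given in the sources used here.

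Counts were fitted in R 4.3.3 with edgeR 4.0.16 (glmQLFit and glmQLFTest) after TMM normalisation, on all 8 libraries in a model of group means blocked by replicate number, since the study states a paired analysis, with Benjamini-Hochberg adjustment over the 14540 genes that passed filterByExpr at a minimum count of 10 (13054 did not). The study states that 2 rounds of sequencing were done, and the labels do not say whether the replicate numbers are these rounds. Deviations from the group means of same-numbered libraries correlated across genes at 0.389 to 0.632 for every pair of groups. At these depths 3 counts correspond to 0.192 to 0.478 CPM, which covers counting error only. Alternatives used limma 3.58.1, DESeq2 1.42.0, other filters, log2 of FPKM plus 1 or 0.1, and 1 library left out at a time. Removal of the trend with gene length was added after seeing the data. The fit was tested on simulated data that held no replicate effect, so that test cannot decide how calls depend on the replicate block.

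The 10 genes, the lists and the tests were chosen with earlier results of these data known. All 10 are named, as are the 4 pathway genes with the largest change in each comparison among those that passed and moved alike in both pairs, the NFAT targets that passed between genotypes, and the nearest patterns, except for a few genes whose results are not reported here. Motifs were searched in RefSeq windows of build GRCm38.p6.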

Additional observations from a re-analysis of the deposited data

Results flagged for a closer look

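The genotype effect on Atp2b1 differed between rTreg and aTreg cells. The interaction term was 0.87 on the log2 scale (adjusted p = 0.0193, edgeR with Benjamini-Hochberg adjustment), with Atp2b1 lower in Foxp1-deficient rTreg cells in both replicate pairs (-0.95 and -1.09) and at -0.18 and -0.14 in the aTreg pairs. The adjusted p over the 18 alternatives reached 0.215.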

How the results depend on the processing

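No call of the 10 genes reversed under an alternative. Limma-voom, median-of-ratios factors, the filter at 1 CPM in 2 libraries and removal of the gene length trend kept every count of genes past the threshold within 1.5 times the reported one. Without the replicate block the count fell from 2 to 0 for the genotypes in aTreg cells, from 5 to 2 for the WT subsets and from 1 to 0 for the interaction, and over all genes the interaction passed for 0 in place of 48. In aTreg cells the genotype count was also 0 with the 4 libraries of the comparison alone, and 0 on log2 FPKM plus 1, plus 0.1 and plus 1 with no filter. The interaction count was 0 under the same FPKM settings, 3 in DESeq2 and 4 with no filter on low counts, where 272 and 573 genes passed over all. With no filter on low counts 2 genes passed between the genotypes in rTreg cells, and on log2 FPKM plus 1 with no filter 3 passed between the WT subsets. The cause was not tested. Leaving out 1 library gave counts of 1 to 2 for the genotypes in rTreg cells, 0 to 1 in aTreg cells, 2 to 4 for the WT subsets, 6 to 7 for the Foxp1-deficient subsets and 0 to 1 for the interaction. With 2 libraries a group, 7 libraries stay in each such fit and the lone library is assumed to vary like the other groups. Counts of Atp2b4 and Ryr2 were low in Foxp1-deficient rTreg cells, at 39 and 110, and 3 and 9.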
